A study of Mus musculus with 90 samples.

Results

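The genes described here sense DNA damage, pass the signal on or repair the lesion. They were 44 named genes chosen by their known functions, and 41 of them had at least 1 probe among the 25697 probes of a mouse bead array. Atr, Mdc1 and Xrcc2 had no probe in the tables used here. Each gene was followed by 1 probe, the detected one with the highest mean signal, and 38 of the genes could be tested in at least 1 tissue. Spleen had 38 tested genes, lung and kidney medulla 35 each, kidney cortex 34 and liver 32. The arrays measured total RNA from fresh-frozen organs of Balb/c mice 24 h after intravenous astatine-211, a radionuclide that emits alpha particles. The injected groups described here had received 1.8, 14 or 42 kBq, and the group they were set against was labelled 0 kBq; each tissue had 3 arrays per activity. Groups of 0.064 and 0.64 kBq, also of 3 arrays, completed the 90 arrays. The age and sex of the mice, and whether the 0 kBq mice were given an injection without the nuclide, are not given in the sources used here. The labels do not say that the 3 arrays of a group came from separate animals, so every p-value here reflects array-to-array spread that may be technical.

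A cell meets a DNA break or a damaged base with a layered response. The kinases ATM and ATR read the lesion with the help of the MRE11, RAD50 and NBN complex and pass the signal to checkpoint kinases and to p53, while H2AX and 53BP1 mark the surrounding chromatin. Double-strand breaks, the lesion for which alpha particles are best known, are rejoined end to end or copied from the sister chromatid by homologous recombination, which is used mainly by dividing cells; single bases, bulky adducts and mispaired bases are removed by base excision, nucleotide excision and mismatch repair. The proteins of these pathways are regulated largely by modification and recruitment, and some of the genes, such as Ddb2, Xpc and Gadd45a, are also known targets of p53. The 3 Gadd45 genes encode small stress-induced proteins that slow the cell cycle and act on stress-activated kinases.

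The Gadd45 promoters are shown because this family of 3 genes held the largest change among the 44 and the most calls of any group. The RefSeq sequence of build GRCm38.p6 is given for the 150 bases before each start site, at chr6:67037408-67037557 on the minus strand for Gadd45a, chr10:80929941-80930090 on the plus strand for Gadd45b and chr13:51846525-51846674 on the plus strand for Gadd45g. Capitals mark the letters CCAAT, the core of a common promoter element, and TATAAA, the core of the TATA box; both motifs were picked after the values were known.
Gadd45a: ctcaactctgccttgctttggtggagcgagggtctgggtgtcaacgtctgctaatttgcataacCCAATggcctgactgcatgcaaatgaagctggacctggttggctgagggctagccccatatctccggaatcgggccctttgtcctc
Gadd45b: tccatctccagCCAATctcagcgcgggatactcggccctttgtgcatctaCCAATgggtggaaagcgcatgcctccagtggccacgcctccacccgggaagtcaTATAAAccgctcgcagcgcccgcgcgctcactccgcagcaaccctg
Gadd45g: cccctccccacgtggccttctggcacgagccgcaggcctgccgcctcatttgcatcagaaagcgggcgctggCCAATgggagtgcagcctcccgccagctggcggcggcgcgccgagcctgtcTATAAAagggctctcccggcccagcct
Over the 250 bases before the start, and on both strands, CCAAT was found in 21 of the 35 member genes with a promoter sequence (60%), against 37.49% of 27025 genes, and in 3 of 3 Gadd45 genes. TATAAA was found in 4 of the 35 genes (11.43%), against 14.33% of all genes, and Gadd45b and Gadd45g were among the 4. The letters TTTNGCGC, a core recognised by E2F factors, were in 1 of the 35 promoters (2.86%), that of Ercc5, against 1.31% of all genes. A pair of CATG cores spaced by 6 bases as in a p53 site was in 0 of 35 promoters, against 0.57% of all genes. A match is a description of the letters only, and its absence says only that these letters are not in this window.

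Levels are log2 intensities after background correction and quantile normalisation within a tissue, and a change is the mean of 3 injected arrays minus the mean of 3 arrays at 0 kBq. A gene was called when limma gave a Benjamini-Hochberg adjusted p under 0.05 over every probe tested in that tissue. The members were tested in 522 combinations of gene, tissue and activity, and 22 of these were called, 11 higher and 11 lower. Over all probes the called share was 3.51% of 226176 combinations. In all, 15 members were called at least once and 23 were called nowhere. The Gadd45 family gave 8 of the 22 calls from 45 combinations. The 8 tested recombination genes gave 1 higher and 4 lower calls, the 9 base excision genes 2 higher and 3 lower, the 7 signalling genes 1 higher and 1 lower, the 4 end joining genes 1 lower and the 5 nucleotide excision genes 1 higher. The mismatch genes Msh6 and Pms2 had 0 calls by limma in 30 combinations (6 at an unadjusted p under 0.05), with changes between -0.43 and 0.20. The 3 injected groups of a tissue share their 0 kBq arrays, so their changes stand side by side below and are not independent of each other.

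**Figure D1:**
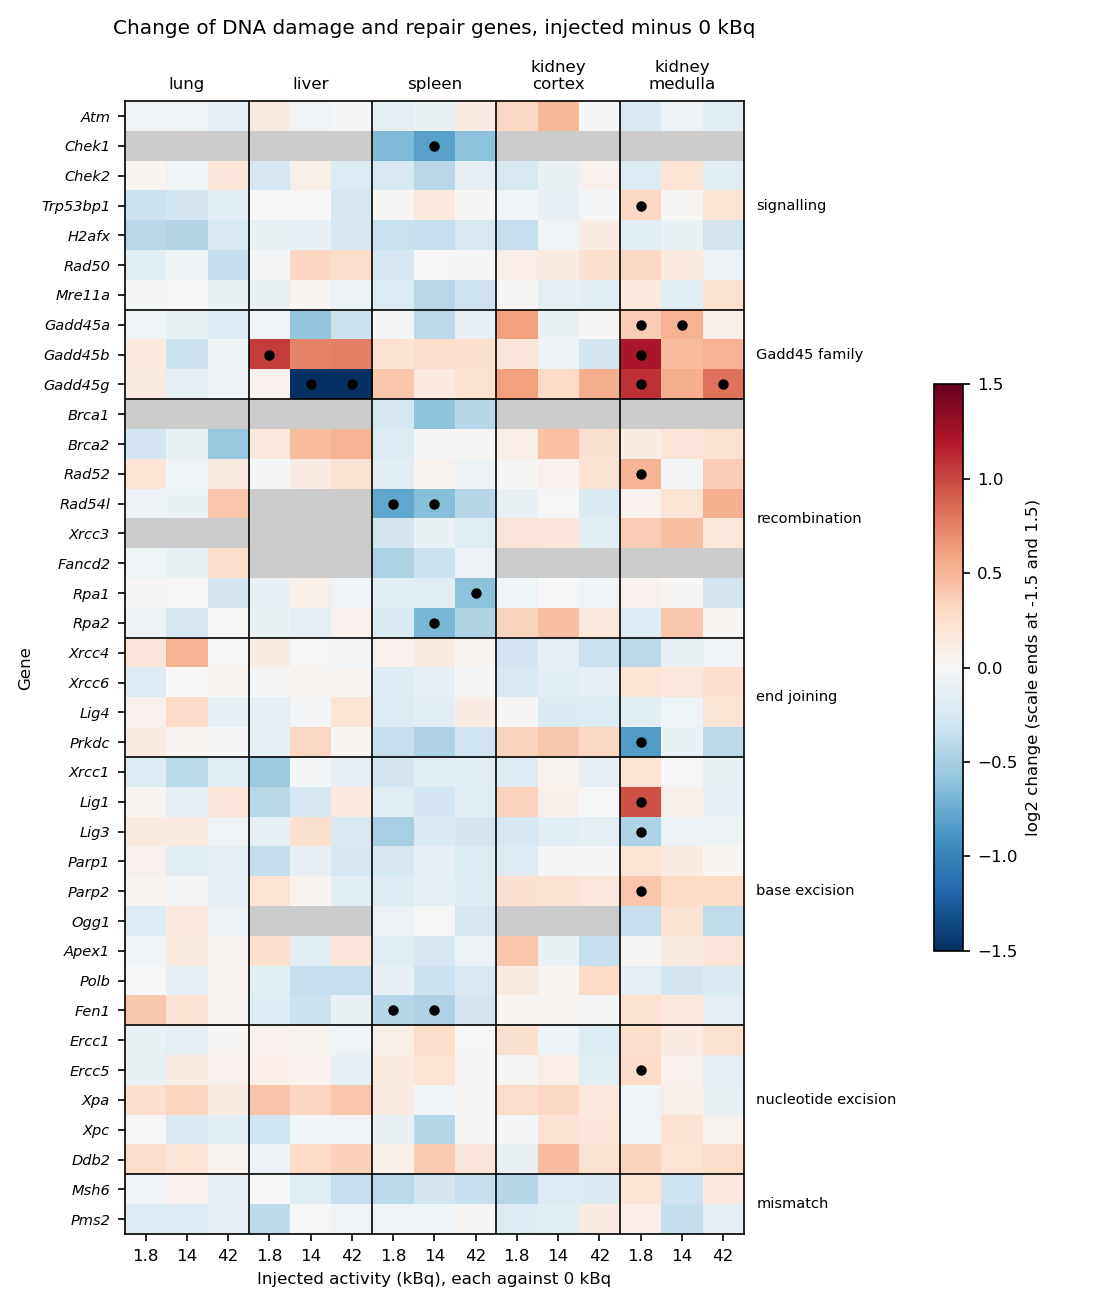
Log2 change of each tested gene (rows, grouped by pathway) at 1.8, 14 and 42 kBq, each minus 0 kBq, in 5 tissues (columns). Red is higher and blue lower in the injected group, the colour scale ends at -1.5 and 1.5, black dots mark an adjusted p under 0.05, and grey means not tested. The dots lie in liver, spleen and kidney medulla; the 2 darkest blue cells are liver Gadd45g at 14 and 42 kBq.

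Some arrays and groups stood apart. Marker genes of the exocrine pancreas, which makes digestive enzymes, were high in the spleens of all 3 injected groups: the mean log2 level of 18 such genes was 14.01, 14.00 and 13.97 at 1.8 kBq, 9.74, 9.81 and 9.80 at 14 kBq, and in the spleens of 42 kBq 12.82, 12.76 and 12.81, against 4.99, 5.06 and 4.97 at 0 kBq. The arrays of 0.064 and 0.64 kBq formed a second set, whose values lie on another numeric grid and whose replicates were more spread: the SD of a gene list's mean between replicates had a median of 0.0965, against 0.049 in the set holding 0, 1.8, 14 and 42 kBq. Activity and array set cannot be told apart for those 30 arrays, and they were not compared with 0 kBq, although they enter the estimate of the spread. The median raw intensity of an array was 86.08 to 151.7 in the first set and 123.9 to 196.0 in the second, and the number of arrays limits the precision.

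Liver held the largest change of any member. Gadd45g, a stress-induced inhibitor of growth, had log2 levels of 9.62, 9.40 and 9.52 on the arrays of 14 kBq, and 42 kBq gave 9.07, 9.06 and 8.83, against 11.26, 11.37 and 11.29 at 0 kBq. All 6 of these injected arrays lay below the 3 control arrays, whereas the arrays of 1.8 kBq, at 11.46, 11.38 and 11.27, overlapped them. Gadd45g fell by 1.80 at 14 kBq (3.47-fold lower, SE 0.34, adjusted p = 0.0075081) and fell by 2.32 at 42 kBq (4.996-fold lower, SE 0.34, adjusted p = 0.0002957), with a change of 0.06 at 1.8 kBq (adjusted p = 0.95512). A second Gadd45g probe had changes of -0.11, -1.95 and -2.33 at 1.8, 14 and 42 kBq, and was called at 14 kBq (adjusted p = 0.03163) and at 42 kBq (adjusted p = 0.0045). Gadd45g also differed between activities, by -1.86 for 14 minus 1.8 kBq (adjusted p = 0.0024845) and by -2.38 for 42 minus 1.8 kBq (adjusted p = 0.0002548). It was the 1 member called in each of these comparisons, beside 5.9% and 4.46% of all probes; for 42 minus 14 kBq limma called 0 members (1 at an unadjusted p under 0.05), beside 0.453% of all probes.

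Gadd45b, the family member induced by inflammatory signals, moved the other way in liver. Its log2 level was 5.87, 5.72 and 6.15 at 1.8 kBq, against 5.14, 4.59 and 4.86 at 0 kBq, where 1 of 3 arrays detected it. Gadd45b rose by 1.05 at 1.8 kBq (2.07-fold, SE 0.26, adjusted p = 0.029184). At 14 and 42 kBq its changes were 0.74 (adjusted p = 0.22081) and 0.75 (adjusted p = 0.13703), and the arrays of all 3 injected groups lay above those of the controls. The call at 1.8 kBq was lost when each array was scaled to its median (0.82, adjusted p = 0.126654), without a filter on detection (1.05, adjusted p = 0.0519252), with the authors' processed intensities (0.51, adjusted p = 0.0577235) and with 5 of the 6 single arrays left out, where the adjusted p reached 0.131668. The change was smallest without background correction, at 0.36 (adjusted p = 0.0299954). Gadd45a, the classical p53-induced member, had levels of 7.25, 7.21 and 7.05 at 14 kBq and 7.40, 7.66 and 7.25 at 42 kBq, against 7.79, 7.73 and 7.76 at 0 kBq. These arrays lay below the controls, but the changes of -0.59 (adjusted p = 0.10288) and -0.32 (adjusted p = 0.39238) did not pass. A second Gadd45a probe was called lower at 42 kBq (-0.68, adjusted p = 0.01078). Over all 13673 liver probes the groups did not overlap for 3961, 3480 and 3697 at 1.8, 14 and 42 kBq.

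Outside the Gadd45 family no liver member was called. Thus 1 of 32 members was called at each activity, beside 3.92%, 1.3% and 3.53% of all liver probes at 1.8, 14 and 42 kBq. The members' median changes were -0.07, 0.01 and -0.06, against -0.02, 0.00 and -0.01 over all probes. Xpa, which verifies bulky lesions in nucleotide excision repair, had changes of 0.43, 0.32 and 0.42 with adjusted p of 0.056226, 0.29066 and 0.071593. Its arrays did not overlap those at 0 kBq at any of the 3 activities. The same held at each activity for 10, 9 and 12 of the 32 members, beside 3961, 3480 and 3697 of all 13673 probes. The Ddb2 changes were -0.09, 0.30 and 0.36 and the Xpc changes -0.30, -0.07 and -0.05; both encode damage-recognition proteins of nucleotide excision repair, and neither was called. Of the p53 targets outside the 44 genes, the cell-cycle inhibitor gene Cdkn1a had liver changes of 0.27, -0.49 and -0.27 and Mdm2 of 0.20, 0.16 and 0.12, and neither was called. The hepatocyte list had a mean level of 11.79, 11.53 and 11.63 at 1.8, 14 and 42 kBq, against 11.66 at 0 kBq, so the labelled tissue showed its markers throughout. The mean of 9 neutrophil genes was 7.92 at 1.8 kBq, 6.24 at 14 kBq and 8.53 at 42 kBq, against 7.31 at 0 kBq, and 12 immediate early genes averaged 6.82, 6.41 and 6.69, against 6.30; their part in the Gadd45 results was not tested. In bulk RNA, fewer cells of a type and less RNA per cell cannot be told apart.

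**Figure D2:**
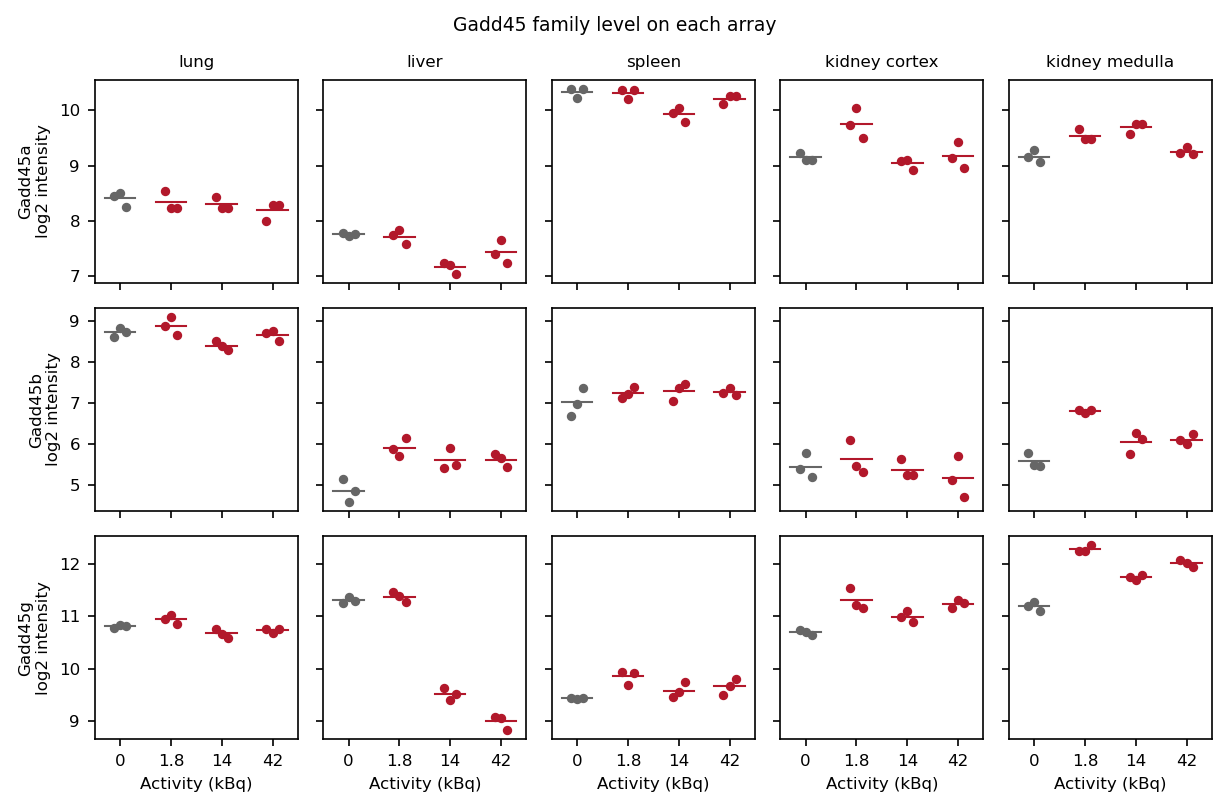
Log2 level of Gadd45a, Gadd45b and Gadd45g (rows) on each array of 5 tissues (columns) at 0, 1.8, 14 and 42 kBq; points are arrays, bars are means of 3, grey is 0 kBq and red the injected groups. In liver the 14 and 42 kBq arrays of Gadd45g lie between 8.83 and 9.62, below the 0 kBq arrays at 11.26 to 11.37; in kidney medulla the 1.8 kBq arrays of Gadd45g lie between 12.25 and 12.35, above 11.09 to 11.28 at 0 kBq.

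Kidney medulla at 1.8 kBq held the most called members of any comparison, 10 of 35, with 8 higher and 2 lower. This was also the comparison with the most called probes, 26.6% of all tested (13.4% higher and 13.3% lower), so the members' count is near that of the array as a whole. The split depended on the scaling. With each array scaled to its median, 6 members were called, 3 higher and 3 lower, beside 21.4% of all probes. Among all called probes the share called higher was then 27.4% in place of 50.2%. The members' median change was 0.16, against 0.01 over all probes. After median scaling it was 0.06, against -0.07 over all probes. In 13 of the 35 members the arrays of the groups did not overlap, beside 40.8% of all probes.

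All 3 Gadd45 genes were higher in medulla at 1.8 kBq. Gadd45b had levels of 6.84, 6.77 and 6.84, against 5.79, 5.49 and 5.47 at 0 kBq, and rose by 1.23 (2.35-fold, SE 0.20, adjusted p = 5.8058e-05). Gadd45g had levels of 12.25, 12.25 and 12.35, against 11.20, 11.28 and 11.09, and rose by 1.09 (2.13-fold, SE 0.19, adjusted p = 0.00017769). For Gadd45a the levels were 9.66, 9.48 and 9.48, against 9.16, 9.28 and 9.06, and the gene rose by 0.38 (SE 0.12, adjusted p = 0.022217). None of these 3 genes had an injected array within the range of its control arrays. The calls of Gadd45b and Gadd45g held under the 9 alternative settings and with each of the 6 arrays left out. With the authors' processed intensities the Gadd45b change was 0.46 (adjusted p = 5.04821e-05). The call of Gadd45a was lost after median scaling (0.23, adjusted p = 0.336647) and in 3 of the 6 reduced sets. Second probes of Gadd45g and Gadd45a were called too, at 0.80 (adjusted p = 0.009373) and 0.67 (adjusted p = 0.000366).

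At the higher activities the medullary Gadd45 levels lay nearer to the controls. At 14 kBq Gadd45g had levels of 11.75, 11.69 and 11.79 and a change of 0.55 (adjusted p = 0.23629), and Gadd45b had a change of 0.47 (adjusted p = 0.33412) with arrays that overlapped the controls. Gadd45a, at 9.57, 9.75 and 9.75, rose by 0.52 at 14 kBq at the edge of the threshold (adjusted p = 0.049999), a call that 6 of 9 alternative settings and every left-out array removed. At 42 kBq Gadd45g had levels of 12.08, 12.01 and 11.93 and rose by 0.82 (1.76-fold, SE 0.19, adjusted p = 0.013503), while Gadd45b had a change of 0.52 (adjusted p = 0.12423) and Gadd45a one of 0.09 (adjusted p = 0.74404). The call of Gadd45g at 42 kBq was absent without the first or second array of 42 kBq or the third of 0 kBq (adjusted p up to 0.0610555), and its second probe had 0.68 (adjusted p = 0.07588). Thus 1 of 35 members was called at each of 14 and 42 kBq, beside 0.438% and 5.05% of all probes.

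The other 7 medullary calls at 1.8 kBq were Lig1, Lig3 and Parp2 of base excision and 1 gene each of end joining, recombination, nucleotide excision and signalling. Lig1, which seals nicks in replication and excision repair, had levels of 7.01, 7.18 and 7.20 at 1.8 kBq, against 6.25, 5.89 and 6.36 at 0 kBq, and rose by 0.96 (1.95-fold, SE 0.17, adjusted p = 0.00014343); its other 2 tested probes had 0.28 and 0.09 and were not called. Lig3, the ligase that works with XRCC1, had levels of 7.09, 6.85 and 7.24, against 7.57, 7.57 and 7.42, and fell by 0.46 (SE 0.13, adjusted p = 0.009265), a call that was lost without the second array of 1.8 kBq (adjusted p = 0.0659683). With the authors' processed intensities the changes were 0.43 for Lig1 and -0.26 for Lig3, both still called. The arrays of both ligase genes did not overlap between the groups. Prkdc, the catalytic subunit of the DNA-dependent kinase of end joining, was not well above background on any of the 3 arrays at 1.8 kBq (4.83, 4.99 and 4.93), whereas it lay at 5.66, 6.09 and 5.53 at 0 kBq; it was at least 1.60-fold lower (adjusted p = 0.00097741), and its other probe had -0.48 (adjusted p = 0.07985). The bound sets the mean at 0 kBq against the lowest detected signal or the probe's own signal, whichever was higher.

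Smaller increases completed the medullary list. Rad52, which anneals single strands in recombination, had levels of 7.71, 7.71 and 7.57 at 1.8 kBq, against 7.37, 6.91 and 7.18 at 0 kBq, and rose by 0.51 (adjusted p = 0.005948). Parp2, a sensor of strand breaks, had levels of 9.75, 9.67 and 9.56, against 9.20, 9.34 and 9.19, and rose by 0.42 (adjusted p = 0.0025047). Neither gene's groups overlapped. Ercc5, the endonuclease that cuts 3′ of a bulky lesion, rose by 0.29 (adjusted p = 0.042897), and Trp53bp1, the 53BP1 gene, by 0.31 (adjusted p = 0.047895). The second probes of Parp2, Ercc5 and Trp53bp1 had changes of 0.04, 0.06 and -0.16 and were not called, and the Ercc5 and Trp53bp1 calls were each lost in 3 of the 9 settings and in 5 of the 6 reduced sets. Median scaling ended the calls of Rad52 (0.40, adjusted p = 0.0832788) and Parp2 (0.27, adjusted p = 0.17773), and Rad52 was also lost without the second array of 0 kBq (adjusted p = 0.0517665). Rad52 changed by 0.30 with the authors' processed intensities. Ddb2 had medullary changes of 0.33 (adjusted p = 0.058049), 0.21 and 0.28 at 1.8, 14 and 42 kBq and Xpc of -0.07, 0.23 and 0.05, and neither was called.

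Between activities, the share of medullary members called was near that of all probes. For 14 minus 1.8 kBq, 8 of 35 members were called, beside 22.5% of all probes: Lig1 (-0.87, adjusted p = 0.00053116), Gadd45b (-0.76, adjusted p = 0.0066612), Rad52 (-0.53, adjusted p = 0.0055465), Gadd45g (-0.54, adjusted p = 0.046473) and the mismatch-binding gene Msh6 (-0.51, adjusted p = 0.016337) were lower at 14 kBq, and Lig3 (0.37, adjusted p = 0.040078) was higher. Prkdc and the glycosylase gene Ogg1 were not well above background on any array at 1.8 kBq, so at 14 kBq they were at least 1.49-fold (adjusted p = 0.0036794) and at least 1.07-fold higher (adjusted p = 0.029434, above background on 2 of 3 arrays at 14 kBq). For 42 minus 1.8 kBq, 3 of 35 members were called: Lig1 (-1.08, adjusted p = 0.00012858), Ercc5 (-0.41, adjusted p = 0.012805) and Gadd45b (-0.71, adjusted p = 0.023872) were lower at 42 kBq, beside 8.62% of all probes. For 42 minus 14 kBq limma called 0 members (6 at an unadjusted p under 0.05), beside 2.51% of all probes.

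Other gene lists were counted in medulla at 1.8 kBq beside the same all-probe shares. Of 17 tested p53 targets outside the 44 genes, 6 rose, beside 13.4% of all probes higher, among them Cdkn1a (0.97, adjusted p = 0.000135), and Mdm2, which encodes the ligase that degrades p53 (0.29, adjusted p = 0.02521). At 42 kBq Cdkn1a rose by 0.72 (adjusted p = 0.01225) and Mdm2 by 0.43 (adjusted p = 0.008913). Of 66 other repair genes tested at 1.8 kBq, 7 rose and 4 fell, a smaller share than the 26.6% of all probes; the replicative polymerase gene Pold1 rose by 0.76 and the single-strand break repair gene Aptx by 0.85, and the translesion polymerase gene Rev1 fell by 0.96 and Rad23b, a partner of XPC, by 0.77. The proximal tubule list averaged 10.67, 10.68 and 10.74 at 1.8 kBq, against 11.16, 11.16 and 11.18 at 0 kBq, with 4 of 8 genes called lower. Immediate early genes averaged 7.57, 7.62 and 7.56, against 6.80, 6.79 and 6.81, with 8 of 9 called higher, and the list of 25 proliferation genes averaged 5.93, against 5.67. The part of these lists in the members' changes was not tested.

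Kidney cortex had no called member by limma at any activity, beside 2%, 0.119% and 1.7% of all probes at 1.8, 14 and 42 kBq. At an unadjusted p under 0.05 there were 7, 4 and 1 of 34, beside 14.5%, 8.56% and 11.2% of all probes. A fit of only the 12 cortex arrays of 0, 1.8, 14 and 42 kBq called 4 of 34 members at 1.8 kBq and 1 at 42 kBq, beside 9.02% and 5.58% of all probes in that fit. Gadd45a had levels of 9.73, 10.04 and 9.50 at 1.8 kBq, against 9.22, 9.11 and 9.11 at 0 kBq. These groups did not overlap, and the change was 0.61 (adjusted p = 0.095736). With the replicate number as a block the change was 0.61 with an adjusted p of 0.0255994. That made Gadd45a the 1 called member of 34 at that activity, beside 2.64% of all probes in the blocked fit. Same-numbered cortex arrays of 1.8 and 0 kBq had weak correlations of 0.263, 0.107 and 0.147. The second 1.8 kBq array correlated slightly better, at 0.117, with a control array of another number. Gadd45g had levels of 11.53, 11.21 and 11.16 at 1.8 kBq and 11.15, 11.30 and 11.26 at 42 kBq, against 10.73, 10.70 and 10.65 at 0 kBq. The groups did not overlap, and the changes of 0.61 (adjusted p = 0.28959) and 0.54 (adjusted p = 0.46672) did not pass. Over all 15063 cortex probes the groups did not overlap for 3682 at 1.8 kBq and 3413 at 42 kBq. Gadd45b had changes of 0.18, -0.08 and -0.28.

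Activities did differ from one another in cortex for a pair of genes. Apex1, the endonuclease that cuts abasic sites, had levels of 7.93, 7.72 and 7.94 at 1.8 kBq and 7.37, 7.36 and 7.31 at 14 kBq; at 42 kBq they were 7.08, 7.03 and 7.17, with 7.35, 7.46 and 7.53 at 0 kBq. It was lower at 14 than at 1.8 kBq (-0.52, adjusted p = 0.043444) and lower at 42 than at 1.8 kBq (-0.77, adjusted p = 0.0024256), and its changes against 0 kBq of 0.42, -0.10 and -0.35 did not pass. Gadd45a was lower at 14 than at 1.8 kBq (-0.71, adjusted p = 0.036515). The shares of all cortex probes called in these comparisons were 3.38% for 14 minus 1.8 kBq and 4.23% for 42 minus 1.8 kBq; for 42 minus 14 kBq limma called 0 members (2 at an unadjusted p under 0.05), beside 0.451%. Ddb2 had changes of -0.11, 0.46 and 0.23 and Xpc of -0.03, 0.22 and 0.18, with none called. Among the p53 targets outside the list, Cdkn1a rose by 1.11 at 1.8 kBq (adjusted p = 0.004273), the 1 call of 18 genes, and Mdm2 had changes of -0.05, 0.21 and 0.20. The hepatocyte list had 3 of 5 genes called higher in cortex at 1.8 kBq, and its part in these values was not tested.

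Cortex and medulla were set against each other directly, with all arrays normalised together, so changes differ slightly from those within a tissue. At 1.8 kBq the change of Parp1, the main poly(ADP-ribose) polymerase that binds strand breaks, was 0.22 in medulla and -0.20 in cortex, a difference of 0.42 (SE 0.13, adjusted p = 0.037917). Prkdc was also called (adjusted p = 0.0098386), but it was not well above background on any medulla array at 1.8 kBq, so the size of its difference is not read here. These were the 2 of 39 members called, beside 7.33% of all probes; Gadd45b, Gadd45g and Lig1 were not among them. At 14 and 42 kBq limma called 0 members (2 and 5 at an unadjusted p under 0.05), beside 0.22% and 1.07% of all probes.

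**Figure D3:**
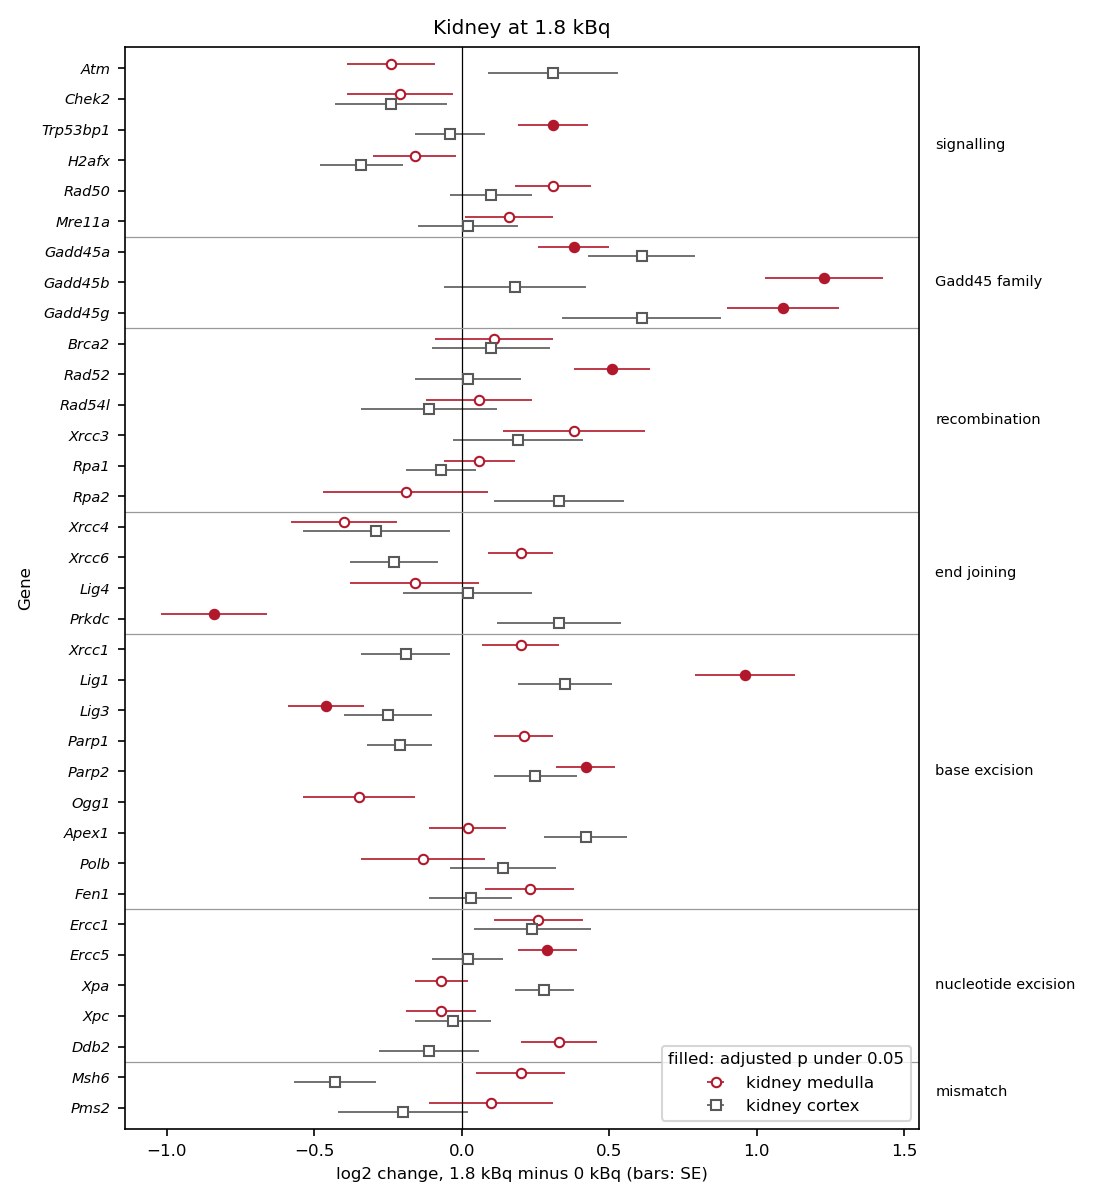
Log2 change at 1.8 kBq minus 0 kBq in kidney medulla (red circles) and kidney cortex (grey squares) for each tested gene, with SE bars; filled symbols have an adjusted p under 0.05. Filled symbols occur only for medulla, with Gadd45b at 1.23, Gadd45g at 1.09 and Lig1 at 0.96 on the right. The leftmost point, medullary Prkdc, is a measured signal that was not well above background on any array at 1.8 kBq, so its place shows only a bound.

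In spleen the called members all fell, and most of the others had a change below 0. At 1.8 kBq 2 of 38 members were called lower, beside 1.37% of all probes called lower; at 14 kBq 4 members, beside 1.4%; at 42 kBq 1 member, beside 0.0784%. With each array scaled to its median the counts were 1, 1 and 0, beside 1.58%, 1.01% and 0.425% of all probes called in either direction. With only the 12 arrays of 0, 1.8, 14 and 42 kBq they were 7, 9 and 2, beside 8.87%, 11.4% and 1.79% of all probes called in either direction in that fit. In the fit of 18 arrays, called in either direction were 2.8%, 3.3% and 0.529% of all probes. The members' median changes were -0.19, -0.17 and -0.13 at 1.8, 14 and 42 kBq, against -0.03, 0.00 and -0.02 over all probes. Changes below 0 were seen for 30, 29 and 26 of 38 members, beside 8293, 7635 and 8255 of all 15310 probes. The groups did not overlap for 17, 18 and 13 of the 38, beside 25%, 27.8% and 18.3% of all probes.

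The called spleen members were Rad54l, Rpa1 and Rpa2 of recombination, Fen1 of base excision and Chek1 of signalling. Rad54l, a motor protein of homologous recombination, had levels of 8.42, 8.41 and 8.49 at 1.8 kBq and of 8.57, 8.52 and 8.64 at 14 kBq, against 9.21, 9.25 and 9.20 at 0 kBq. It fell by 0.78 at 1.8 kBq (1.72-fold lower, SE 0.15, adjusted p = 0.0044978) and by 0.64 at 14 kBq (adjusted p = 0.021701), and its change at 42 kBq was -0.43 (adjusted p = 0.40833). Fen1, the nuclease that trims flaps in replication and long-patch base excision, had levels of 11.12, 11.23 and 11.19 at 1.8 kBq and 11.10, 11.18 and 11.14 at 14 kBq, against 11.63, 11.67 and 11.52 at 0 kBq. Fen1 fell by 0.43 at 1.8 kBq (adjusted p = 0.041516) and by 0.46 at 14 kBq (adjusted p = 0.025553), with a change of -0.28 at 42 kBq (adjusted p = 0.52324). For both genes all 9 injected arrays lay below the controls. The Rad54l call at 1.8 kBq held with each of the 6 arrays left out, whereas the Rad54l call at 14 kBq and both Fen1 calls were lost each time, with adjusted p up to 0.0904626 for Rad54l and 0.161471 for Fen1. Median scaling also ended these last 3 calls, with adjusted p up to 0.234442 for Fen1 and 0.0562283 for Rad54l.

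Chek1, the checkpoint kinase activated by ATR, had levels of 4.98, 5.42 and 4.84 at 14 kBq, detected on 1 of 3 arrays, against 5.78, 6.01 and 5.87 at 0 kBq. It fell by 0.81 (SE 0.21, adjusted p = 0.040699), with changes of -0.66 (adjusted p = 0.10675) at 1.8 kBq and -0.62 (adjusted p = 0.37327) at 42 kBq; another probe was called at 1.8 kBq (-0.73, adjusted p = 0.01803) and 14 kBq (-0.74, adjusted p = 0.01847). Rpa1 and Rpa2, the members that encode subunits of the single-strand binding protein RPA, were each called once. Rpa2 had levels of 7.71, 7.76 and 7.81 at 14 kBq, against 8.23, 8.65 and 8.48, and fell by 0.69 (adjusted p = 0.013833), while another Rpa2 probe had -0.27 (adjusted p = 0.5664). Of the 9 alternative settings Chek1 was called in 5, and its change was -0.26 (adjusted p = 0.0700179) with the authors' processed intensities. With 1 of the 6 arrays left out, Chek1 remained called in 1 case and Rpa2 in 2, with adjusted p up to 0.176018 and 0.0907982. Rpa1 had levels of 11.40, 11.37 and 11.43 at 42 kBq, against 12.10, 11.98 and 11.95, and fell by 0.61 (1.53-fold lower, SE 0.10, adjusted p = 0.0015593). Its changes at 1.8 and 14 kBq were -0.16 and -0.18 (adjusted p = 0.4732 and 0.35747), and 42 minus 1.8 kBq gave -0.45 (adjusted p = 0.032749), the 1 member called there, beside 0.712% of all probes. For 14 minus 1.8 kBq and 42 minus 14 kBq limma called 0 members (5 and 2 at an unadjusted p under 0.05), beside 2.25% and 0.712%. The Rpa1 call at 42 kBq was lost after median scaling (adjusted p = 0.113864).

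By pathway, 8, 7 and 7 of the 8 recombination genes lay below 0 in spleen at 1.8, 14 and 42 kBq. Of the 9 base excision genes 9, 8 and 9 did, beside 8293, 7635 and 8255 of all 15310 probes. The median changes were -0.24, -0.25 and -0.31 for recombination and -0.19, -0.23 and -0.20 for base excision. The nucleotide excision genes had medians of 0.09, 0.21 and 0.02 and the Gadd45 genes of 0.23, 0.15 and 0.23. Single Gadd45 and nucleotide excision genes did not pass: Gadd45g had changes of 0.42, 0.15 and 0.23 (adjusted p = 0.082229 at 1.8 kBq), Gadd45b of 0.23, 0.28 and 0.25, Gadd45a of -0.02, -0.40 and -0.12, Ddb2 of 0.08, 0.39 and 0.18 and Xpc of -0.11, -0.43 and 0.02. At 14 kBq the Xpc arrays, at 8.25, 8.49 and 8.22, lay below 8.85, 8.81 and 8.58 at 0 kBq (adjusted p = 0.099839), and the Ddb2 arrays, at 8.23, 8.45 and 8.12, lay above 7.88, 7.92 and 7.83 (adjusted p = 0.11088). These 2 p53-responsive damage sensors therefore lay on opposite sides of the controls without either being called.

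The spleen changes stood beside changes of other lists. The mean of 25 proliferation genes was 8.98, 8.97 and 8.98 at 1.8 kBq and 8.87, 8.88 and 8.84 at 14 kBq; at 42 kBq it was 9.15, 9.08 and 9.11, against 9.42, 9.46 and 9.42 at 0 kBq. Of 23 tested proliferation genes 4, 9 and 0 were called lower, with medians of -0.50, -0.55 and -0.29. Of 18 pancreatic genes 18 were called higher at each activity. The part of either list in the members' changes was not tested. Among 75 other repair genes the single-strand binding gene Rpa3 and the checkpoint clamp gene Hus1 fell by 0.65 and by 0.55 at 14 kBq, the helicase gene Recql4 fell by 0.71 at 1.8 kBq and the glycosylase gene Smug1 rose by 0.72 at 14 kBq. Cdkn1a had changes of 0.19, 0.39 and 0.81 (adjusted p = 0.07577 at 42 kBq) and Mdm2 of -0.13, 0.12 and -0.02.

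**Figure D4:**
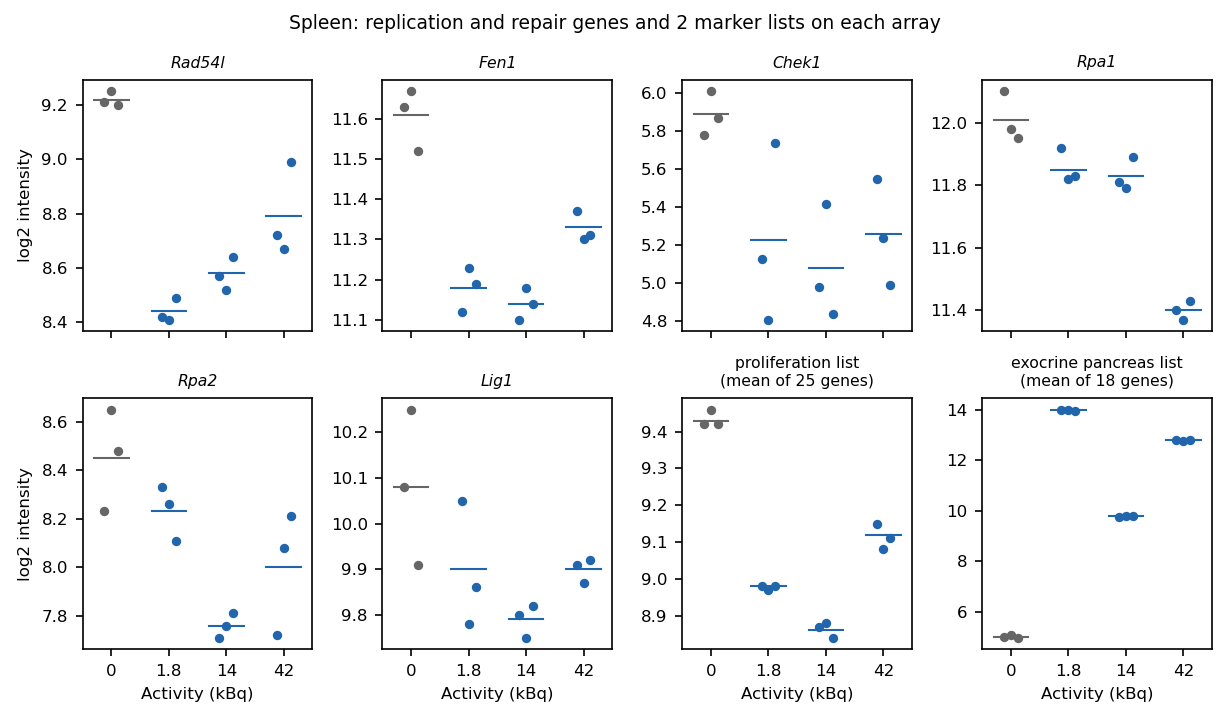
Spleen log2 level on each array at 0, 1.8, 14 and 42 kBq for 6 repair genes and for the mean of the proliferation and exocrine pancreas lists; points are arrays, bars are means of 3, grey is 0 kBq and blue the injected groups, and each panel has its own vertical range. The 9 injected arrays of Rad54l lie between 8.41 and 8.99, below 9.20 to 9.25 at 0 kBq, and Rpa1 is lowest at 42 kBq.

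In lung limma called 0 of 35 members at each activity, beside 0.374%, 0.43% and 0.679% of all probes. At an unadjusted p under 0.05 there were 3, 5 and 3 members, beside 10.4%, 12.5% and 6.33% of all probes. A fit of only the 12 arrays of 0, 1.8, 14 and 42 kBq called Rpa1 lower at 42 kBq, beside 2.27% of all probes. The members' medians were -0.02, -0.07 and -0.08, against -0.02, -0.01 and -0.02 over all probes. The changes of Gadd45a were -0.06, -0.11 and -0.21, those of Gadd45b 0.15, -0.32 and -0.08 and those of Gadd45g 0.13, -0.15 and -0.08. Ddb2 had 0.28, 0.21 and 0.05 and Xpc -0.01, -0.22 and -0.17. Between the activities limma called 0 members (2, 3 and 5 at an unadjusted p under 0.05), beside 1.41%, 1.36% and 0.623% of all probes for 14 minus 1.8, 42 minus 1.8 and 42 minus 14 kBq. Of 18 p53 targets limma called 0 at each activity (7, 4 and 3 at an unadjusted p under 0.05), and of 73 other repair genes also 0 (6, 4 and 2); Cdkn1a had 0.33, 0.16 and 0.50 and Mdm2 0.08, 0.05 and 0.19. Airway secretory cell markers differed between the lung groups, with 4 of 5 called higher at 14 and at 42 kBq. Of 8 cardiac and skeletal muscle genes 6 were called higher in lung at 42 kBq, by up to 6.85, and 2 lower at 1.8 kBq. Of 9 neutrophil genes 3 were called lower at 14 kBq, and of 11 immediate early genes 3 were called higher at 1.8 kBq and 1 at 14 kBq; the part of these lists in the lung values was not tested.

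Whether a gene's response differed among the 5 tissues was tested in 1 model over all 90 arrays, normalised together. At 1.8 kBq 9 of 39 members were called, beside 16.2% of all probes; at 14 kBq 5 members, beside 3.36%; at 42 kBq 3 members, beside 4.4%. With each array scaled to its median the last 2 counts were 2 and 1, and the share of all probes was not counted there. Gadd45g differed most at the higher activities: in lung, liver, spleen, cortex and medulla its changes were -0.17, -1.5, 0.16, 0.29 and 0.56 at 14 kBq (adjusted p = 0.000204) and -0.09, -1.95, 0.25, 0.53 and 0.82 at 42 kBq (adjusted p = 1.35e-08). Liver was the tissue with a decrease over 1 at both activities. Lig1 differed most at 1.8 kBq, with changes of 0.03, -0.46, -0.21, 0.34 and 0.94 in the same order of tissues (adjusted p = 1.28e-05). Gadd45b at 1.8 kBq had 0.15, 1.40, 0.23, 0.17 and 1.17 (adjusted p = 0.00893, lost after median scaling), so its changes over 1 were in liver and medulla. Fen1 at 1.8 kBq had 0.44, -0.19, -0.48, 0.03 and 0.23 (adjusted p = 0.000941), and Rad54l had -0.07, 0.14, -0.82, -0.11 and 0.05 (adjusted p = 0.0181). At 0 kBq Rad54l was detected on 2 lung, 1 cortex, 0 liver and 0 medulla arrays. Outside spleen it thus lay near background, and the part of this in the difference among tissues was not tested.

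At 0 kBq the members were unevenly distributed among the organs. With all arrays normalised together, the spleen at 0 kBq was set against the mean of the other 4 tissues: 28 of 39 members were higher and 3 lower, with a median difference of 1.07, beside 29.9% of all probes higher and 29.1% lower. All 8 recombination genes and both mismatch genes were higher in spleen, with medians of 1.92 and 1.83, and so were 7 of 8 signalling genes. Fen1 averaged 11.96 ± 0.08 in spleen and 7.56 in the other tissues (SD, n = 3 arrays in spleen), a difference of 4.41 (21.2-fold, adjusted p = 3.9113e-50). Lig1 averaged 10.27 ± 0.19 in spleen and 6.41 elsewhere (14.5-fold, adjusted p = 2.3897e-41), and H2afx, the histone variant marked at breaks, averaged 10.53 ± 0.13 in spleen and 7.06 elsewhere (11.1-fold). Rad54l averaged 9.33 ± 0.03 in spleen and was not well above background on any of the liver and kidney medulla arrays at 0 kBq. Fen1 and Lig1 also act in replication, and the labels give a tissue rather than a cell type, so the level per dividing cell was not measured.

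The Gadd45 genes did not share that order. Gadd45a averaged 10.54 ± 0.10 in spleen and 8.60 in the other tissues (3.83-fold, adjusted p = 2.2383e-19). Gadd45b averaged 8.40 ± 0.12 in lung and 5.77 in the other tissues (6.20-fold, adjusted p = 4.8792e-19). Gadd45g was lowest in spleen, at 9.55 ± 0.01 against 10.92 elsewhere (adjusted p = 5.3586e-09), and highest in liver, at 11.37 ± 0.05 against 10.46 elsewhere (1.88-fold, adjusted p = 4.5534e-05). The gene with the largest decrease after injection, liver Gadd45g, was thus measured where its control level was highest. In lung 7 members were higher and 17 lower, in liver 6 and 24, in cortex 0 and 19, and in medulla 2 and 21. Called in either direction in these tissues were 54.6%, 57%, 47% and 45.8% of all probes. The mean of the other 4 tissues includes spleen here, so a gene high in spleen tends to be called lower elsewhere. Fen1 averaged 7.71, 7.49, 7.51 and 7.51 in lung, liver, cortex and medulla and was called lower in each. The lower counts are therefore not a result separate from the spleen levels.

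Some members showed the ends of the measured range. Rpa1 and the Ku70 gene Xrcc6, whose protein binds broken ends, were detected on 90 of 90 arrays, and Xrcc6 had changes between -0.23 and 0.25 with no call. Nbn, the third partner of MRE11 and RAD50, was detected on 5 of 90 arrays and Ogg1 on 14 of 90, so little can be read from their values. Ercc2 and Xrcc5 were tested in no tissue, and Nbn was tested only in the fits over all arrays.

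**Figure D5:**
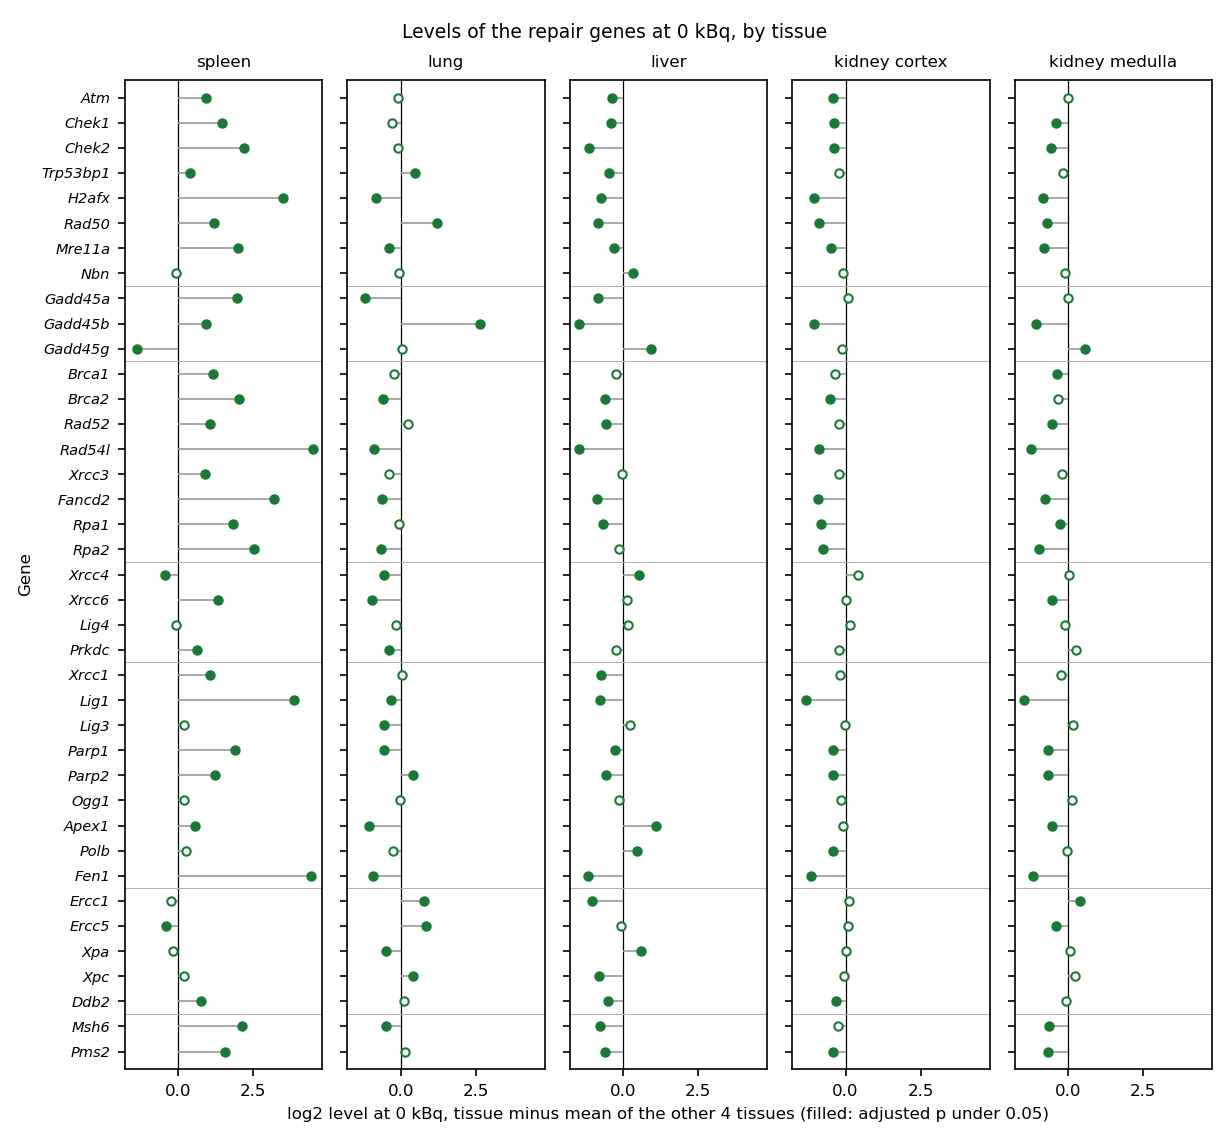
Log2 level of each gene at 0 kBq in 1 tissue minus the mean of the other 4 tissues, 1 panel per tissue; filled points have an adjusted p under 0.05. In the spleen panel Rad54l, Fen1, Lig1 and H2afx lie farthest to the right, and in the lung panel Gadd45b stands out at 2.63.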

How the data were processed

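RNA was measured on single-colour Illumina bead arrays with 25697 probes, 90 in all, from 5 tissues at 6 activities with 3 arrays each. The deposited table holds the raw bead intensity and the detection p-value of each probe on each array, per the file headers; the authors' own processing steps are not given in the sources used here. A second deposited table holds processed intensities on a linear scale, whose array medians were 117.5 to 117.9 for the 0, 1.8, 14 and 42 kBq arrays and 164.8 to 165.5 for the 0.064 and 0.64 kBq arrays. Each processed column had a rank correlation of at least 0.9992 with its own unnormalised array, and how the authors centred it is unknown.

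Gene names are those of the table; 23978 probes had 1 symbol and 1719 had none. Intensities were background-corrected with normexp by detection p-value (limma 3.58.1 in R 4.3.3, offset 16), taken to log2 and quantile normalised within a tissue. Probes with a detection p under 0.05 on at least 3 arrays were tested: 16048 in lung, 13673 in liver, 15310 in spleen, 15063 in cortex and 15298 in medulla. A mean per group was fitted over the 18 arrays of a tissue, with an intensity trend in the variance prior, and p-values were adjusted over all probes of a contrast. Tests between tissues used all 90 arrays normalised together (19538 probes). The fit was also run on simulated data with known shifts, and the outcome is not given here. Probes differ in brightness, so a difference in level between genes was not read as a difference in RNA. Levels were ranked between genes only to name the members at the ends of the intensity range.

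The members, gene lists and named genes were chosen with earlier results of these data known. Named were members called at several activities, the 4 smallest adjusted p per test, the Gadd45 genes, Ddb2, Xpc, Cdkn1a and Mdm2 in every tissue, and the members at the ends of the intensity range. Replicate numbers appear in the labels of every group, but the labels do not state that equal numbers are paired. Arrays with the same number as their control deviated together with every correlation over 0.1 in 3 of 15 combinations of tissue and activity. These were spleen at 14 and 42 kBq and cortex at 1.8 kBq, which were taken as paired. For these, blocked values are given where they change a call. Spleen at 1.8 kBq, with 0.181, 0.096 and 0.137, fell just short of this cutoff. The rule was applied to the same arrays and does not establish which arrays are paired. Alternatives covered the background correction, scaling, filter, arrays in the fit, variance prior, probe choice, replicate block, the authors' processed table and each array left out. Promoter sequences come from RefSeq (GRCm38.p6), in which 35 of the 44 genes were matched.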

Additional observations from a re-analysis of the deposited data

Results flagged for a closer look

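The response to a given activity differed among tissues for the genes listed here, by limma's moderated F test over the 5 tissues with Benjamini-Hochberg adjustment over all probes. At 1.8 kBq these were Lig1 (adjusted p = 1.28e-05), Fen1 (0.000941), Parp1 (0.00307), Chek1 (0.00421), Gadd45b (0.00893), Parp2 (0.016), Rad54l (0.0181), Xrcc1 (0.0281) and Prkdc (0.0465). The Parp1 changes in lung, liver, spleen, cortex and medulla were 0.07, -0.32, -0.29, -0.20 and 0.22, those of Parp2 0.05, 0.18, -0.21, 0.24 and 0.43, and those of Xrcc1, the scaffold of single-strand break repair, -0.21, -0.55, -0.28, -0.19 and 0.20. Prkdc was not well above background on any kidney medulla array at 1.8 kBq. Chek1 was detected on 9 of 90 arrays, so its differences outside spleen are differences near background. Rad54l, detected on 38 of 90 arrays, also lay near background outside spleen.

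At 14 kBq the genes were Gadd45g (adjusted p = 0.000204), Fen1 (0.0127), Chek1 (0.0224), Xpc (0.0273) and Gadd45a (0.0419). The Xpc changes were -0.23, -0.07, -0.45, 0.22 and 0.24 in the same order of tissues, negative in lung, liver and spleen and positive in both kidney regions. Those of Gadd45a were -0.11, -0.56, -0.45, -0.10 and 0.54. At 42 kBq they were Gadd45g (adjusted p = 1.35e-08), Rpa1 (0.0245) and Rad54l (0.0393). The Rpa1 changes were -0.31, -0.05, -0.65, -0.05 and -0.28, and the Rad54l changes 0.30, 0.25, -0.45, -0.23 and 0.47. Those of Rad54l outside spleen are differences near background.

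Between the kidney regions at 1.8 kBq, the response in medulla minus that in cortex was -1.08 for Prkdc and 0.42 for Parp1 on the log2 scale. The Prkdc value rests on medulla arrays at 1.8 kBq that were not well above background, so it is a difference of measured signals and not a size of the change. The cause of these differences was not tested.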

How the results depend on the processing

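No single named member that was called in the main fit or in an alternative changed its sign between them. Signs of changes called in neither fit were not compared. The count of called members moved by over 1.5 times in these cases. With only the 12 arrays of 0, 1.8, 14 and 42 kBq in a tissue's fit, the count at 1.8, 14 and 42 kBq was 4, 4 and 4 in liver in place of 1, 1 and 1; 7, 9 and 2 in spleen in place of 2, 4 and 1; and in medulla 2 at 14 and 3 at 42 kBq in place of 1 and 1. It was 4 at 1.8 and 1 at 42 kBq in cortex and 1 at 42 kBq in lung, in place of 0. The share of all probes rose too in that fit. It was 14.7%, 7.94% and 12.5% in liver and 8.87%, 11.4% and 1.79% in spleen at 1.8, 14 and 42 kBq. In medulla it was 2.54% at 14 and 10.5% at 42 kBq. Cortex had 9.02% at 1.8 and 5.58% at 42 kBq, and lung 2.27% at 42 kBq. Calls of members between activities in that fit were summed over the 3 comparisons of a tissue. In lung, liver, spleen, cortex and medulla they numbered 4, 9, 5, 7 and 20, in place of 0, 2, 1, 3 and 11 (0, 1, 1, 2 and 9 different members). Members that differed among tissues at 1.8, 14 and 42 kBq numbered 16, 10 and 7 with 60 arrays, in place of 9, 5 and 3. The share of all probes was not counted for these alternatives, so their rises are not read as particular to the members. With each array scaled to its median, the counts were 0 in liver at 1.8 kBq and 1, 1 and 0 in spleen. In medulla they were 6 at 1.8 kBq and 0 at 14 kBq. The share of all probes fell too, to 1.62% in liver at 1.8 kBq and 1.58%, 1.01% and 0.425% in spleen. In medulla it was 21.4% at 1.8 kBq and 0.327% at 14 kBq, in place of 26.6% and 0.438%. Under this scaling 2 and 1 members differed among tissues at 14 and 42 kBq. The share of all probes was not counted for these tests. The median of all liver probes at 1.8 kBq was -0.22 in place of -0.02, and the members' median there was -0.31. In medulla at 1.8 kBq the members' median was 0.06, against -0.07 over all probes. Without a filter the counts were 0 in liver and 1 in spleen at 1.8 kBq and 0 in medulla at 14 kBq. In that setting 1.57%, 1.37% and 0.198% of 25697 probes were called. The stricter filter gave 2 in liver at 1.8 kBq, beside 5.52% of all probes. No background correction gave 2 in liver at 14 kBq, beside 1.38%. Any tested probe gave 2 in liver at 42 kBq. Medulla at 14 kBq also gave 0 with an offset of 50, no background correction, the authors' table or no intensity trend. In that order 0.412%, 0.418%, 0.399% and 0.222% of all probes were called. Medulla at 42 kBq gave 0 with no intensity trend, beside 3.58% of all probes.

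With 1 array left out, the counts were 0 to 1, 1 to 1 and 1 to 2 in liver, 1 to 2, 0 to 1 and 1 to 1 in spleen, and 7 to 9, 0 to 0 and 0 to 1 in medulla at 1.8, 14 and 42 kBq, and 0 throughout in lung and cortex. With the replicate number as a block, cortex at 1.8 kBq had 1 called member, beside 2.64% of all probes. Cortex had 5 calls between activities in the blocked fit. Ddb2 in medulla at 1.8 kBq, where the numbers were not taken as paired, had 0.33 with a blocked adjusted p of 0.0479668. The block changed no other count of calls by over 1.5 times. Numbers shared across the 45 compared pairs had correlations of -0.192 to 0.316, over 0.1 in 26, and 35 of 45 arrays correlated best with their own number. Single named members without a left-out array kept their side of the threshold in 809 checks, lost a call in 38 and gained one in 19. With 1 array left out they kept it in 478 checks and lost a call in 56. The kept checks include named members that were called in neither fit, so they do not measure how stable the calls are. The cause of these shifts was not tested beyond the arrays and probes each setting holds. Genes detected on few arrays, such as Chek1, Ogg1 and Nbn, are limited by background.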

Other observations

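The arrays of 0.064 and 0.64 kBq belong to the second array set and are given as values only. In liver, Gadd45g had log2 levels of 11.60, 10.92 and 12.53 at 0.064 kBq and 11.82, 12.24 and 10.33 at 0.64 kBq, a range that covers the 0 kBq arrays of the first set at 11.26 to 11.37. Liver Gadd45a had 6.97, 7.07 and 7.14 at 0.064 kBq and 5.60, 5.96 and 6.38 at 0.64 kBq. In spleen Gadd45a had 8.96, 9.52 and 10.06 at 0.064 kBq and 7.98, 9.11 and 8.44 at 0.64 kBq. In kidney medulla Gadd45g had 11.03, 11.67 and 12.45 at 0.064 kBq and 11.59, 11.99 and 11.84 at 0.64 kBq, and Gadd45b had 5.42, 5.57 and 5.36 and then 4.93, 5.81 and 5.42. The replicates of these groups were more spread for Gadd45g than those of the first set. Activity and array set cannot be told apart in these values.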
